A study of Mus musculus with 12 samples.

Results

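The genes described here are members of the nuclear receptor superfamily, measured in the adrenal glands of mice that carry a Ftz-F1 transgene, against wild-type littermates. Ftz-F1 is the older name of Nr5a1, the gene of the nuclear receptor SF-1. The members were listed by name: 36 nuclear receptor genes other than Nr5a1 itself and the other receptors kept apart from this list, Nr6a1, Nr0b1, Nr4a1, Nr2f1, Nr2f2, Nr1d1, Nr1d2, Thrb and Pparg. Of the 36, 34 had a probe assigned to a single gene under the platform's annotation, and all 34 entered the test among 17882 named genes. Nr1h2 and Nr2e3 had no such probe in that annotation and were not analysed here. The 34 genes were read by 44 of 25344 spots per array.

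Nuclear receptors are transcription factors with a zinc-finger domain that binds DNA and a domain that, in many members, binds a small lipophilic ligand. Steroid receptors bind DNA mostly as pairs of the same protein, many lipid-sensing receptors pair with a retinoid X receptor (RXR), and SF-1 binds as a single molecule. In the adrenal gland SF-1 is required for development and activates genes of steroid synthesis, and glucocorticoid and mineralocorticoid receptors elsewhere in the body answer the hormones that the gland makes. "Orphan" receptors are those named before any ligand was known.

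Each of 6 transgenic mice of line #56, called YAC in the labels, was set against a wild-type littermate matched for sex and age, on 2 arrays with the dyes exchanged, 12 arrays in all. Pairs are called by the number of the transgenic mouse. At 10 days of age, pairs 11, 13 and 15 had transgenic mice with 1 copy of the transgene. At 4 months, pairs 1, 3 and 5 had transgenic mice with 2 copies, so age and copy number cannot be told apart. The mice were female in pairs 15 and 5 and male in the remaining 4. All transgenic mice came from a single line, and the wild-type mouse of each pair was its own control.

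Every value below is a log2 ratio of the transgenic and the wild-type channel after the trend of the ratio with spot signal was removed on each array, averaged over both arrays of a pair. The sources used here do not say which of the channels is the numerator of the deposited ratio. Signs are therefore given as deposited, and a positive ratio is not called an increase. The targeted gene does not settle it: Nr5a1 had ratios of -0.57, -0.65 and -0.79 in pairs 11, 13 and 15 and of -0.46, 0.11 and -0.22 in pairs 1, 3 and 5. It was negative in 5 of 6 pairs, with a mean of -0.67 ± 0.11 (SD, n = 3) at 10 days and -0.19 ± 0.29 (SD, n = 3) at 4 months. The sources used here do not say whether its probe reads the transgene. Of the 9 adrenal cortex markers measured, 8 had spot signals between the 92.6th percentile of probes, for Cyp11b2, and the 99.4th, for Fdx1, and Scarb1 lay at the 56.4th. Signal here is a single value per probe, not per array. It is rebuilt from the whole numbers behind the ratios of the Cy3 orientation, where Cy3 labelled the transgenic mouse. Arrays with the transgenic sample in Cy3 had medians from -0.68 to -0.22 before correction and those with it in Cy5 from 0.74 to 1.50, and 4.30% to 6.59% of spots were empty. The labels give each dye orientation a single date, different for Cy3 and Cy5 and of a step they do not name, so dye and date cannot be told apart.

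Many nuclear receptors recognise the 6-base half-site AGGTCA, and SF-1 and the estrogen-related receptors prefer AAGGTCA, the same half-site with an added A. In the RefSeq promoter windows of build GRCm38.p6, the 250 bases before the annotated start were searched on both strands for 33 matched members. A gene counted where any of its windows held a match. Only windows with a match are printed below, so other annotated starts of a gene may not be shown. AGGTCA (or its reverse complement TGACCT) was found in 5 of the 33, namely Nr1h4, Nr5a2, Rarg, Rxra and Rxrg, against 15.76% of 27025 genes. AAGGTCA (or TGACCTT), every copy of which also holds the shorter motif, was found in 2 of the 33, Rxra and Rxrg, against 4.7%. Windows of 3 genes are printed, since Nr1h4 had the most negative mean ratio of the members and Rxra and Rxrg encode partners shared by many members. They run 5′ to 3′ on the strand of the gene, with the half-site in capitals: Nr1h4 at chr10:89506659-89506908 on the minus strand, Rxra at chr2:27709042-27709291 and Rxrg at chr1:167618015-167618264, both on the plus strand.
Nr1h4: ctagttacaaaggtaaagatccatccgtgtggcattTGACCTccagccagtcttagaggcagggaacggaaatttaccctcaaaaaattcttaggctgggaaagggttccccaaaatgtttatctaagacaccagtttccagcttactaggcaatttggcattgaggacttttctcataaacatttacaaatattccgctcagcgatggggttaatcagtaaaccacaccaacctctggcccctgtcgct
Rxra: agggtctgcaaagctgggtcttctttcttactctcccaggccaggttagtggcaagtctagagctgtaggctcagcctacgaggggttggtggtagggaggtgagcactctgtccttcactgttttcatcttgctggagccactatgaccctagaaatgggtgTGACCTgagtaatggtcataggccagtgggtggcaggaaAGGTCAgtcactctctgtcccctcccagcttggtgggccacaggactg
Rxrg: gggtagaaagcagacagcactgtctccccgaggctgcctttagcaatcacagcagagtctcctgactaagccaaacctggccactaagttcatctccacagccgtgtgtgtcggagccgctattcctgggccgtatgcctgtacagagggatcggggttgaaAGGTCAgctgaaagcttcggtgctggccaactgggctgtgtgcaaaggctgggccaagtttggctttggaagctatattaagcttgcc
In Nr1h4 the half-site was reversed and began 214 bases before the start. The printed Rxra window held a reversed copy 87 bases before its start and a forward copy 48 bases before it. The printed Rxrg window held a forward copy 88 bases before its start. In both RXR genes the forward copy was preceded by the A of the longer motif. A match of letters is a description only; binding was not measured.

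No nuclear receptor gene passed the limma test over all 21513 features (Benjamini-Hochberg adjusted p below 0.05) in any of 4 contrasts. At 10 days 0% of all features passed, at 4 months 0%, over all 6 pairs 0.0558% (12 features) and for the 4-month minus the 10-day mean 0%. The smallest adjusted p of a member was 0.446 at 10 days, 0.282 at 4 months, 0.11 over all 6 pairs and 0.933 for the difference. An ordinary linear model on the same pair values called 0 members as well, and 0%, 0%, 0.00465% and 0% of all features in the same 4 contrasts.

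At an unadjusted limma p below 0.05, 4 members were found at 10 days (8.34% of all features), Esrrb and Hnf4a with a positive ratio (4.25% of features) and Nr1h4 and Esrrg with a negative one (4.09%). At 4 months there were 2 (12.3%), Esrrb positive (6.09%) and Nr1h4 negative (6.21%). Over all 6 pairs the same 2 genes were found (15%), Esrrb positive (7.52%) and Nr1h4 negative (7.45%). For the difference between the groups there were 2 (4.56%), Esrrg higher in ratio at 4 months (2.17%) and Nr3c1 lower (2.39%). At the same unadjusted level the ordinary linear model found 4 members at 10 days (7.85% of features), 3 at 4 months (10.6%), 4 over all pairs (13.1%) and 4 for the difference (4.75%). In no contrast did a member's call hold after adjustment over all features.

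The members' ratios lay close to 0. Of 204 pair values 185, or 90.7%, were within 0.5 of 0, against 89.9% for all features. All 6 values stayed within 0.5 in 23 of 34 members, a count not made for all features. The median SD over the 6 pairs was 0.21 for members and 0.22 for all features. The median size of the mean ratio over all pairs was 0.06 for members and 0.10 for all features. A pair value beyond 1 in size occurred in 3 members, Nr1h3, Nr1h4 and Nr0b2 (8.82%, against 7.56% of features).

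**Figure D1:**
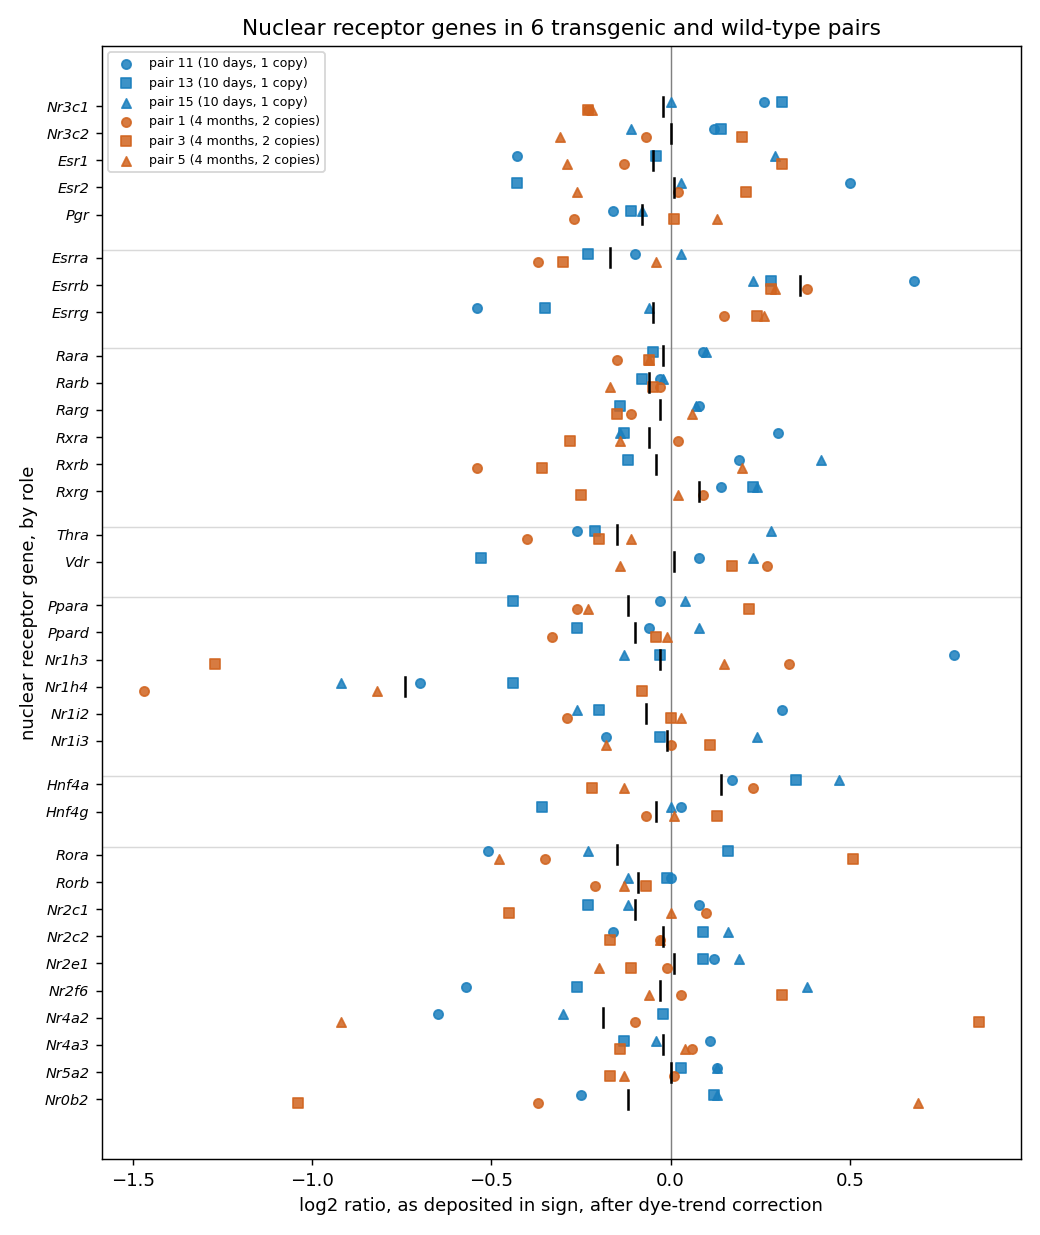
Log2 ratio (horizontal axis, sign as deposited) of each of the 34 nuclear receptor genes (vertical axis, grouped by role) in each of 6 pairs. Blue symbols are 10-day pairs, orange symbols 4-month pairs and black bars the mean of all 6; Esrrb lies right of 0 and Nr1h4 left of 0 in all 6 pairs, while Nr1h3, Nr4a2 and Nr0b2 are spread widely.

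By sign, 16 members were positive and 18 negative at 10 days (median -0.03), and 5 were positive and 29 negative at 4 months (median -0.09). Over all features 10322 were positive and 11191 negative at 4 months, with a median of -0.01. With arrays centred on their median in place of the signal trend, 4 of the 34 signs turned at 4 months (against 7.71% of features). The members' median was then -0.06. With only the Cy3 arrays 5 turned (against 30.7% of features), with a median of -0.29. With only the Cy5 arrays 18 turned (against 24.4% of features), with a median of 0.07. The median of all features stayed at -0.01 and 0.00. Over all 6 pairs 6 members were positive and 28 negative (median -0.04). Of these signs 11 turned with median centring, 8 with the Cy3 arrays and 18 with the Cy5 arrays. The shares of all features that turned were 15%, 33.6% and 24.5%. The uncentred values as deposited were positive in most features (median 0.36 at 4 months and 0.28 over all pairs) and are not used for a sign. Since the dye orientations gave medians of opposite sign, no direction is given for the family as a whole.

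Steroid hormone receptors carry the signals of glucocorticoids, mineralocorticoids, estrogens and progesterone. Their 5 mean ratios over all pairs lay between -0.08 and 0.01. Nr3c1, the glucocorticoid receptor, had ratios of 0.26, 0.31 and 0.00 in pairs 11, 13 and 15 and of -0.23, -0.23 and -0.22 in pairs 1, 3 and 5. The groups did not overlap, with means of 0.19 ± 0.17 (SD, n = 3) and -0.22 ± 0.01 (SD, n = 3) and a difference of -0.41 (SE 0.14, limma adjusted p 0.933). Its spot signal was at the 2.9th percentile of probes, and its 2 arrays disagreed in sign in 3 pairs, so the measurement is close to the dim end of the arrays.

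Nr3c2, the mineralocorticoid receptor, gave 0.12, 0.14 and -0.11 at 10 days and -0.07, 0.20 and -0.31 at 4 months. Both groups spanned 0, and the mean over all pairs was 0.00 ± 0.19 (SD, n = 6). Each of its pair values averages arrays of opposite sign: the mean was -0.52 over the Cy3 arrays and 0.51 over the Cy5 arrays.

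Esr1, which encodes estrogen receptor alpha, gave -0.43, -0.04 and 0.29 in the 10-day pairs and -0.13, 0.31 and -0.29 in the 4-month pairs. The groups overlapped throughout. Esr2, estrogen receptor beta, ranged from -0.43 to 0.50 over the 6 pairs, and Pgr, the progesterone receptor, from -0.27 to 0.13. The 6 values of each of these genes lay on both sides of 0.

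Estrogen-related receptors resemble estrogen receptors in sequence but do not bind estrogens, and they regulate mitochondrial and energy genes. They share the extended half-site with SF-1. Esrrb gave 0.68, 0.28 and 0.23 in pairs 11, 13 and 15 and 0.38, 0.28 and 0.29 in pairs 1, 3 and 5. It was the only member positive in 6 of 6 pairs, a pattern seen in 5.67% of features, and it was positive on 12 of 12 arrays. The mean was 0.40 ± 0.25 (SD, n = 3) at 10 days, 0.32 ± 0.06 (SD, n = 3) at 4 months and 0.36 over all pairs (SE 0.08, limma adjusted p 0.122). Its spot signal was at the 80.9th percentile. Pair 11 was the highest, and without it the 10-day mean was 0.25 and the mean over all pairs 0.29. The difference between the groups was -0.08, smaller than the SD within the 10-day group.

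Esrrg showed the largest difference between the groups among the members tested. Its ratios were -0.54, -0.35 and -0.06 at 10 days and 0.15, 0.24 and 0.26 at 4 months, so the groups did not overlap and had opposite signs. The means were -0.31 ± 0.24 and 0.22 ± 0.06 (SD, n = 3 each), and the difference was 0.53 (SE 0.16), which did not pass the test (limma adjusted p 0.933). The difference was 0.20 with only the Cy3 arrays and 0.86 with only the Cy5 arrays. Its spot signal was at the 17.1st percentile.

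Esrra gave -0.10, -0.23 and 0.03 in the 10-day pairs and -0.37, -0.30 and -0.04 in the 4-month pairs. It was negative in 5 of 6 pairs, with a mean of -0.17 over all pairs (SE 0.08, limma adjusted p 0.362). The Cy3 arrays averaged 0.17 and the Cy5 arrays -0.51, and the 2 arrays disagreed in sign in 5 pairs. As pair means, 1 of the 3 estrogen-related receptors was positive throughout, 1 of opposite sign in the 2 groups and 1 mostly negative. The values of Esrra and Esrrg depended on dye orientation, and none of the 3 genes passed the test in any contrast.

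**Figure D2:**
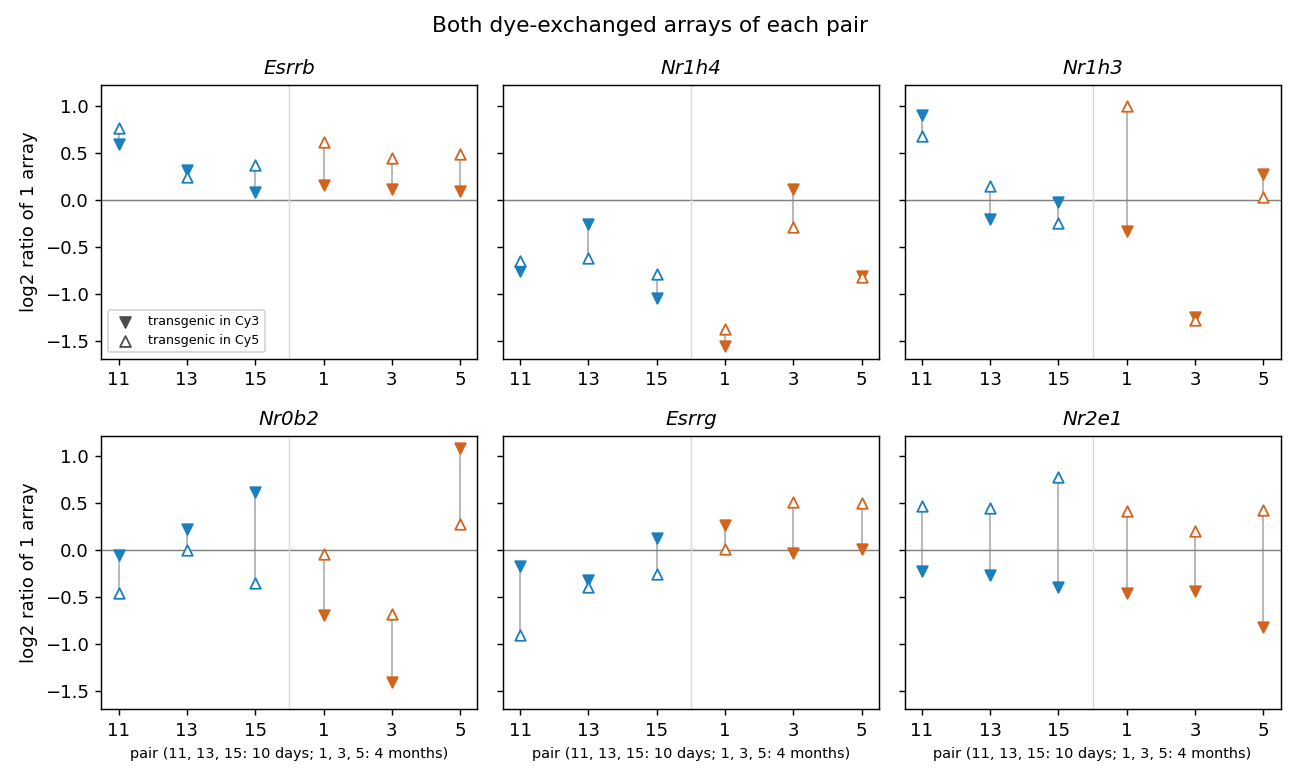
Log2 ratio of each single array (vertical axis) for 6 nuclear receptor genes in each pair (horizontal axis), filled triangles with the transgenic sample in Cy3 and open triangles with it in Cy5; grey lines join both arrays of a pair. For Esrrb all 12 arrays are above 0 and for Nr1h4 11 of 12 below it, whereas for Nr2e1 every Cy3 array is below 0 and every Cy5 array above it.

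Retinoid receptors comprise the retinoic acid receptors (Rara, Rarb, Rarg) and the RXRs (Rxra, Rxrb, Rxrg), which serve as partners of many other members. Their 6 mean ratios over all pairs lay between -0.06 and 0.08. At 10 days 5 of 6 were positive in mean, Rarg at 0.00 and Rxra at 0.01 among them. At 4 months all 6 were negative, between -0.23 and -0.04. Of all features 10451 were positive and 11062 negative at 10 days, and 10322 and 11191 at 4 months. Over all pairs the Cy3 arrays of these 6 genes averaged between -0.16 and 0.05, and their Cy5 arrays between 0.00 and 0.11. The signs thus varied with dye orientation, and no direction is given for these receptors. Rarb was negative in 6 of 6 pairs, but its mean was -0.06 ± 0.05 (SD, n = 6) and its values did not go beyond -0.17. Neither of its 2 probes was negative in every pair: 1 gave 0.22 in pair 11 and the other 0.08 in pair 1. For Rara the groups did not overlap, with means of 0.05 ± 0.09 and -0.09 ± 0.05 (SD, n = 3 each). Its 4 probes disagreed, with means over all pairs from -0.14 to 0.17. Rarg ranged from -0.15 to 0.08.

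Rxrg, an RXR of muscle and brain, gave 0.14, 0.23 and 0.24 in the 10-day pairs and 0.09, -0.25 and 0.02 in the 4-month pairs. The 10-day values all lay above the 4-month values. The 10-day mean was 0.20 (SE 0.10, limma adjusted p 0.676), and the 4-month minus 10-day difference was -0.25. Rxrb gave 0.19, -0.12 and 0.42 against -0.54, -0.36 and 0.20, and its groups overlapped. The difference was -0.40 (SE 0.23, limma adjusted p 0.933).

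Rxra gave 0.30, -0.13 and -0.14 at 10 days and 0.02, -0.28 and -0.14 at 4 months as a mean of 3 probes, and those probes disagreed. The probe designed on BC039639 was negative in every pair, with -0.17, -0.28 and -0.48 in pairs 11, 13 and 15 and -0.37, -0.58 and -0.35 in pairs 1, 3 and 5. The similarly bright probe on NM_011305 gave 0.91, 0.21 and 0.25 in the 10-day pairs and 0.27, -0.08 and 0.00 in the 4-month pairs. Their means over all pairs were -0.37 and 0.26. The gene's mean of -0.06 is thus an average of unlike probes, and no direction is given for Rxra. The third probe, on AK020634, was at the 2.4th signal percentile and averaged -0.07.

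Thyroid hormone and vitamin D receptors act as RXR partners. Thra, thyroid hormone receptor alpha, gave -0.26, -0.21 and 0.28 in the 10-day pairs and -0.40, -0.20 and -0.11 in the 4-month pairs. It was negative in 5 of 6 pairs with a mean of -0.15 over all pairs (SE 0.09, limma adjusted p 0.497), at the 2.5th signal percentile. Vdr, the vitamin D receptor, ranged from -0.53 to 0.27 with a mean of 0.01 ± 0.30 (SD, n = 6).

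Receptors of fatty acids, oxysterols, bile acids and foreign compounds held the largest ratios of the family. Nr1h4 encodes FXR, the bile acid receptor, known from liver and intestine. Its ratios were -0.70, -0.44 and -0.92 in pairs 11, 13 and 15 and -1.47, -0.08 and -0.82 in pairs 1, 3 and 5. It was negative in 6 of 6 pairs, as were Rarb and Rorb (3 members, and 4.75% of features), and pair 3 stood apart with a value near 0. The mean was -0.69 ± 0.24 (SD, n = 3) at 10 days, -0.79 ± 0.69 (SD, n = 3) at 4 months and -0.74 over all pairs (SE 0.16, limma adjusted p 0.11).

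Both dye orientations gave Nr1h4 nearly the same mean, -0.72 over the Cy3 arrays and -0.76 over the Cy5 arrays, and 11 of 12 arrays were negative. The exception was the Cy3 array of pair 3, at 0.12. Without pair 3 the 4-month mean was -1.14 and the mean over all pairs -0.92. Without pair 1 they were -0.45 and -0.57. Its probe lay at the 87.2nd signal percentile, so this gene was measured well above the dim end. The test was not passed after adjustment with either pair left out, at adjusted p 0.159 and 0.218. In whole glands, a different number of cells of a type and a different amount of RNA per cell cannot be told apart, for this gene as for every other.

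Nr1h3 encodes LXR alpha, a sensor of oxidised cholesterol. It gave 0.79, -0.03 and -0.13 at 10 days and 0.33, -1.27 and 0.15 at 4 months. Single pairs stood apart: pair 11 was high and pair 3 low, and the remaining 4 values lay between -0.13 and 0.33. The 4-month mean was -0.26 ± 0.88 (SD, n = 3) and became 0.24 without pair 3. Both arrays of pair 3 were low, at -1.25 and -1.28, and both of pair 11 were high, at 0.90 and 0.68.

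Nr0b2, or SHP, lacks a DNA-binding domain and represses other nuclear receptors, and it is a target of FXR in liver. It gave -0.25, 0.12 and 0.13 at 10 days and -0.37, -1.04 and 0.69 at 4 months. The 4-month pairs spanned 0 widely, with a mean of -0.24 ± 0.87 (SD, n = 3). Without pair 3 the 4-month mean was 0.16, and without pair 5 it was -0.70. The 10-day pairs averaged 0.00 ± 0.22 (SD, n = 3).

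Nr1i2, the xenobiotic receptor PXR, gave 0.31, -0.20 and -0.26 at 10 days and -0.29, 0.00 and 0.03 at 4 months. Nr1i3, its relative CAR, gave -0.18, -0.03 and 0.24 at 10 days and 0.00, 0.11 and -0.18 at 4 months. Both genes had values on each side of 0 in each group, and means over all pairs of -0.07 and -0.01. Ppara and Ppard, fatty acid receptors, had means of -0.12 ± 0.24 and -0.10 ± 0.16 (SD, n = 6 each) and were negative in 4 and 5 of 6 pairs.

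Hnf4a and Hnf4g belong to a receptor group best known from liver, gut and kidney. Hnf4a gave 0.17, 0.35 and 0.47 in the 10-day pairs and 0.23, -0.22 and -0.13 in the 4-month pairs. The 10-day mean was 0.33 ± 0.15 (SD, n = 3; limma adjusted p 0.52) and the 4-month mean -0.04 ± 0.24 (SD, n = 3), with overlapping groups. The value averages a bright and a dim probe. The bright probe, on BC024551 at the 85.6th signal percentile, gave 0.46, 0.53 and 0.74 at 10 days and 0.53, -0.36 and 0.13 at 4 months, positive in every pair except pair 3. The dim probe, on NM_008261 at the 2nd percentile, ranged from -0.39 to 0.19. Hnf4g ranged from -0.36 to 0.13.

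**Figure D3:**
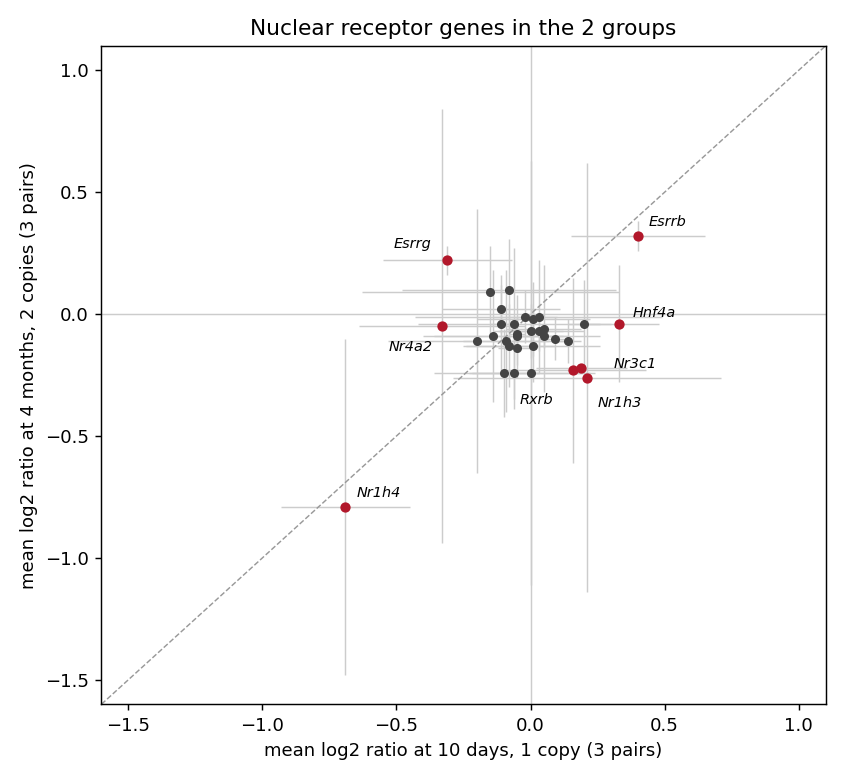
Mean log2 ratio of each of the 34 members at 4 months (vertical axis) against that at 10 days (horizontal axis), with SD over 3 pairs as grey bars and equal values on the dashed line. Most members sit within 0.25 of 0 on both axes; Esrrb and Nr1h4 lie near the dashed line, and Esrrg lies above it, at -0.31 and 0.22.

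Orphan receptors formed the largest role group, with 10 members, Nr0b2 included, whose mean ratios over all pairs lay between -0.19 and 0.01. Nr2e1, known from neural stem cells, gave 0.12, 0.09 and 0.19 at 10 days and -0.01, -0.11 and -0.20 at 4 months. The groups were of opposite sign in all pairs, as for Esrrg, making 2 of 34 members (5.88%, against 2.63% of features). The difference was -0.24 (SE 0.13, limma adjusted p 0.933). For Nr2e1 all 6 Cy3 arrays were negative, with a mean of -0.43, and all 6 Cy5 arrays positive, with a mean of 0.46, and its spot signal was at the 3.8th percentile.

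The values of Nr5a2, the gene most closely related to Nr5a1, ranged from -0.17 to 0.13. Its groups did not overlap, with means of 0.09 ± 0.06 and -0.10 ± 0.09 (SD, n = 3 each), but the Cy3 arrays averaged -0.41 and the Cy5 arrays 0.41, at the 5.7th signal percentile. In all, the groups did not overlap for 6 of 34 members (17.6%, against 10.4% of features): Esrrg, Nr3c1, Rara, Rxrg, Nr2e1 and Nr5a2. Of these, Rxrg had the brightest spots, at the 35.1st signal percentile.

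Nr4a2, an early-response gene of the NR4A group, varied most among the orphans. It was positive in pair 3 at 0.86 and negative in the other 5 pairs, down to -0.92 in pair 5. In pair 1 the arrays disagreed, at 0.89 and -1.09. Its relative Nr4a3 stayed between -0.14 and 0.11.

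Rora, a receptor of the circadian and cerebellar systems, ranged from -0.51 to 0.51 and had a mean of -0.15 ± 0.41 (SD, n = 6). Rorb was negative in every pair, with a value that rounds to 0.00 in pair 11, and averaged -0.09 ± 0.08 (SD, n = 6), and its Cy3 arrays averaged -0.42 against 0.24 for Cy5. The repressors Nr2c1 and Nr2c2 had means of -0.10 and -0.02. Nr2f6, a relative of the COUP-TF receptors, ranged from -0.57 to 0.38 with a mean of -0.03.

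Many of the dim members differed between the dye orientations, which the labels also set apart by date. In 5 members, Nr3c2, Nr1i2, Nr2c2, Nr2e1 and Nr5a2, all 6 Cy3 arrays were negative and all 6 Cy5 arrays positive (14.7%, against 3.09% of features). The reverse was found in 0 members, against 2.26% of features. All 5 had signals at or below the 17.4th percentile, and 14 of the 34 members lay in the lowest 25% of signal against 7 in the highest 25%. In 21 of 34 members at least 3 pairs had arrays of opposite sign. The share of all features with this trait was not counted, so it is not shown to be particular to the members. Averaging both arrays removes an effect that is equal in size and opposite in sign on them, and the part of dye or date in the remaining differences was not tested.

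Genes that work with nuclear receptors were taken from 6 lists. No gene of these lists passed the limma test over all 6 pairs, where 12 of 21513 features did. Of 23 coregulators 9 were positive and 14 negative (median -0.02, against -0.01 for all features), and 2 positive and 2 negative ratios were at an unadjusted p below 0.05 (against 7.52% and 7.45% of all features). Nsd1, a histone methyltransferase that binds nuclear receptors, gave -0.41, -0.33 and -0.52 at 10 days and -0.56, -0.30 and 0.00 at 4 months (mean -0.35, SE 0.09, adjusted p 0.145). Ppargc1a, coactivator of estrogen-related and PPAR receptors, was positive in 6 of 6 pairs (5.67% of features), between 0.06 and 0.38 (adjusted p 0.26). The 10 receptor chaperones had a median of -0.01, with 1 positive and 1 negative at that level (7.52% and 7.45% of features). They were the immunophilins Fkbp5, with a mean of 0.25, and Fkbp4, with a mean of -0.29, both of which bind the complex of Hsp90 and steroid receptors.

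Retinoid handling genes make, store and break down the ligands of the retinoid receptors. Of 16 genes 10 were positive (median 0.05), against 10132 of 21513 features, and 4 positive and 1 negative ratios were at an unadjusted p below 0.05 (7.52% and 7.45% of features). Dhrs9, a retinol dehydrogenase, gave 0.85, 0.45 and 0.28 in the 10-day pairs and 0.46, 0.51 and 0.49 in the 4-month pairs, positive on 12 of 12 arrays (mean 0.51, SE 0.09, adjusted p 0.0882). Dhrs3, which reduces retinaldehyde back to retinol, gave -0.28, -0.63 and -0.10 at 10 days and -0.38, -0.63 and -0.71 at 4 months (mean -0.46, SE 0.09, adjusted p 0.0991). Both genes were named because their p over all pairs was the smallest of the list, and neither passed the test.

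Among 7 genes that move or change thyroid hormone the median was 0.13. Positive ratios were found in 6, with 2 of them at an unadjusted p below 0.05 (7.52% of features). Slc16a10, a transporter of thyroid hormone and aromatic amino acids, gave 1.04, 0.51 and 0.35 at 10 days and 0.48, 0.78 and 0.51 at 4 months (mean 0.61, SE 0.10, adjusted p 0.0882). Ttr, a carrier of thyroid hormone that is also a hepatocyte marker, was highest in pair 11, at 1.46, and averaged 0.58. Every pair was positive for both genes, as for 5.67% of features.

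The 13 LXR targets tested had 5 positive and 8 negative ratios and a median of -0.08, and 3 negative ratios were at an unadjusted p below 0.05 (7.45% of features). Abca1, which exports cholesterol, was negative in 6 of 6 pairs (4.75% of features), between -0.50 and -0.07 (mean -0.33, SE 0.08, adjusted p 0.141). Its mean was -0.04 over the Cy3 arrays and -0.62 over the Cy5 arrays, and its arrays disagreed in sign in 3 pairs. Mylip, which marks the LDL receptor for breakdown, was also negative in every pair, with its lowest value of -1.11 in pair 3. The arrays of Mylip disagreed in sign in 4 pairs. The 20 PPARA targets tested had 15 positive and 5 negative ratios and a median of 0.09, with 2 positive and 3 negative at an unadjusted p below 0.05 (7.52% and 7.45% of features). Pdk4, a kinase that restrains glucose oxidation, was positive in every pair (5.67% of features) and highest in pair 15, at 1.88. Acaa1a, a peroxisomal thiolase, was negative in 5 of 6 pairs, with a mean of -0.28.

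Some pairs stood apart in markers of other tissues. The median of 14 hepatocyte markers was 1.00 in pair 11, where 13 of them were positive, and between 0.00 and 0.35 in the others. Alb, the gene of serum albumin, was 6.73 in pair 11. The median of 10 adipocyte markers was 1.19 in pair 15, with 9 positive, and between -0.24 and 0.05 elsewhere. That of 10 markers of lymphocytes and splenic macrophages was -2.16 in pair 3 and between -0.16 and -0.01 elsewhere. In pair 3 and in pair 5 none of those 10 was positive. In pair 5 H2-Ab1 and H2-Aa, of antigen presentation, were at -1.25 and -1.34, and the rest lay between -0.28 and -0.02. Low H2-Ab1 was not particular to pair 5: it was -2.83 in pair 3, -1.09 in pair 1 and -0.98 in pair 13. It was negative in 5 of 6 pairs. The median of 9 kidney tubule markers lay between -0.08 and 0.12 in the 6 pairs. Among the members, pair 11 held the highest Nr1h3 and Esrrb values, and pair 3 held the lowest Nr1h3 and Nr0b2 values and the Nr1h4 value nearest to 0. The bright Hnf4a probe was not highest in pair 11. The part of these other tissues in the members' ratios was not tested.

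**Figure D4:**
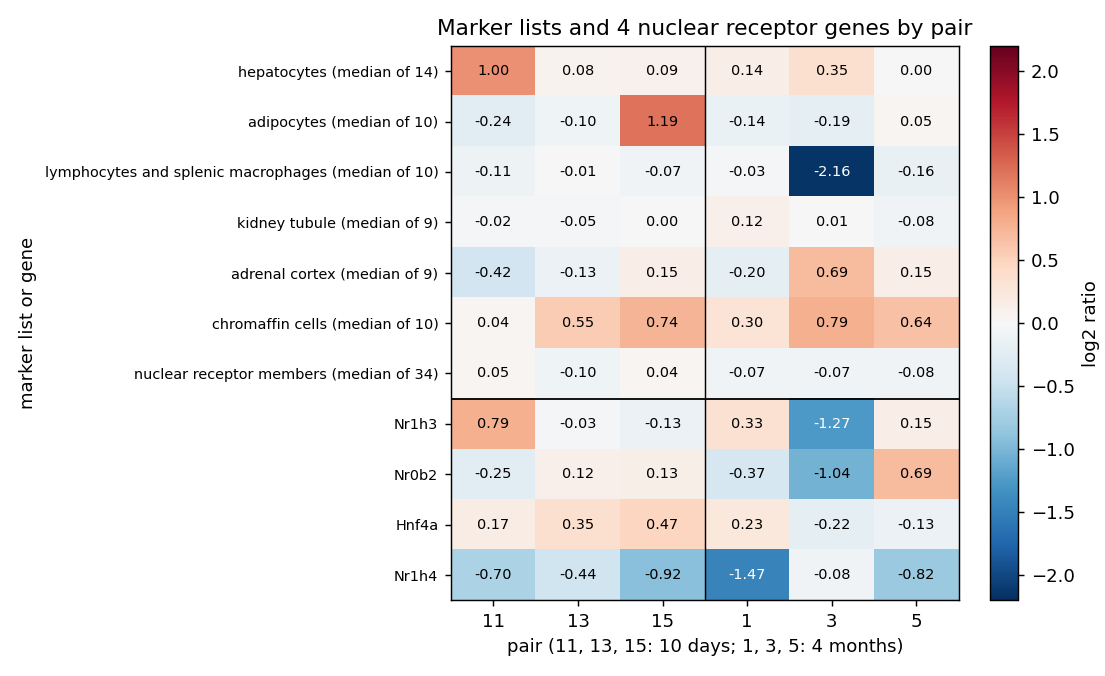
Median log2 ratio of 6 marker lists and of the 34 members, and the ratios of 4 single members (rows), in each pair (columns), with the value written in each cell and red for positive, blue for negative ratios. Pair 11 stands apart for hepatocyte markers (1.00), pair 15 for adipocyte markers (1.19) and pair 3 for lymphocyte and macrophage markers (-2.16), while the median of the members stays between -0.10 and 0.05.

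Within the gland, 9 adrenal cortex markers had medians from -0.42 in pair 11 to 0.69 in pair 3, and 10 chromaffin cell markers, which mark the adrenal medulla, had medians from 0.04 in pair 11 to 0.79 in pair 3. Of the chromaffin markers 8 were positive in mean over all pairs, and Gal, a neuropeptide, passed the test (mean 1.20, limma adjusted p 0.0358). The chromaffin median was lowest in pair 11, where Esrrb was highest at 0.68, and highest in pair 3, where Nr1h4 was nearest to 0 at -0.08. The cortex median was lowest and highest in the same pairs. Nr1h4 was lowest in pair 1, at -1.47, where neither median was at an extreme. Whether the makeup of the gland differed between the mice of a pair was not tested.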

How the data were processed

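Adrenal RNA of 6 pairs of mice was measured on 12 arrays with both channels used. The deposited table holds log2 ratios of both channels for 25344 spots per array. The base follows from the values: where Cy3 labelled the transgenic sample, 2 raised to a value is a ratio of whole numbers up to 65535, within a relative tolerance of 1e-13. The sources used here do not name the scanner, background subtraction or any normalization by the authors. The values were not centred and followed signal and dye, although the plan had taken them as normalized. Each array of either orientation was therefore corrected by loess (span 0.3) on a single signal per probe. That signal was rebuilt from those whole numbers, up to a factor common to both channels, for 24641 probes. The Cy5 orientation had no rebuilt signal of its own.

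As deposited, both arrays of a pair correlated at -0.50 to -0.10 and opposite-dye arrays of different pairs at -0.62 to -0.24. After the loess correction, and with the mean of each orientation removed, same-pair arrays correlated at 0.23 to 0.65 and others at -0.27 to 0.12. No array was therefore turned. The direction of the ratio stays unknown.

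Probes were named by the platform's annotation (21082 with 1 gene, 30 with several, 4232 with none; 20456 in RefSeq), averaged per gene, and both arrays averaged per pair. Features with at least 2 pairs per group (21513) entered a limma 3.58.1 model (R 4.3.3) of 1 mean per group (4 residual and 3.85 prior degrees of freedom). P-values were two-sided and adjusted by Benjamini-Hochberg at 0.05. The fit was tested on simulated data. The number of arrays limits the precision. The p-values measure the spread between 6 pairs of littermates.

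The members and gene lists were chosen with earlier results of these data known. Every member was accounted for. Pair values were given for the 5 members with the smallest p in each contrast, members beyond 1 in size in a pair, and Hnf4a, Nr1h4, Nr1i2, Nr1i3, Nr0b2, Nr3c1, Nr3c2, Esr1 and Rxra. Of each other pathway list the 2 genes with the smallest p over all pairs were named. Nr4a2, Alb, Gal and the adrenal cortex markers were described after their values were seen. The alternatives were median centring, no correction, an ordinary linear model, each dye orientation alone, single probes, no dim probes, no empty spots, a sex term, and each pair left out.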

Additional observations from a re-analysis of the deposited data

Results flagged for a closer look

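Esrrg had pair values of opposite sign in the 2 groups, negative in all 3 pairs at 10 days and positive in all 3 at 4 months. The 4-month minus 10-day difference was 0.53 (means 0.22 and -0.31), and it did not pass the limma test of the difference (SE 0.16, adjusted p 0.933). It was 0.42 without pair 11 and 0.66 without pair 15. With only the Cy3 arrays it was 0.20 and with only the Cy5 arrays 0.86.

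Nr2e1 was positive in all 3 pairs at 10 days and negative in all 3 at 4 months. The difference was -0.24 (means -0.11 and 0.14; SE 0.13, limma adjusted p 0.933). Each of its pair values averages arrays of opposite sign, with a mean of -0.43 over the Cy3 arrays and 0.46 over the Cy5 arrays. Its spot signal was at the 3.8th percentile. Values of opposite sign in all pairs of the groups occurred in 2.63% of all features, and the age and the copy number of the groups cannot be told apart.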

How the results depend on the processing

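No member passed the threshold in any contrast with arrays centred on their median, with the ordinary linear model, without the dimmest 25% of probes (20 members left), with features measured on all arrays, with a sex term, with every probe tested on its own, or with any 1 pair left out. With the uncentred values as deposited 2 members passed at 4 months (11.8% of all features) and 5 over all pairs (Esrrb, Rxrg, Nr1h4, Hnf4a and Nr2e1; 27.7%), and the medians of all members were 0.23 at 10 days, 0.32 at 4 months, 0.27 over all pairs and 0.09 for the difference. With only the Cy3 arrays 7 passed over all pairs (6.46% of features), all negative (3.32%), with medians of -0.18, -0.29 and -0.16 at 10 days, at 4 months and over all pairs. With only the Cy5 arrays 8 passed over all pairs (15.9%), 6 of them positive (7.44%), with medians of 0.18, 0.07 and 0.10. Of these, 4 passed with both orientations and 0 of those had the same sign; dye and date cannot be told apart here. Esrrb and Nr1h4 passed over all pairs as deposited (adjusted p 0.0151 and 0.0189) and with the Cy5 arrays (0.0177 and 0.0116). Spot background is unknown, and 14 of 34 members lay in the lowest 25% of signal. Each ratio pairs a transgenic mouse with its littermate. The 10-day and 4-month groups are different mice and were compared as independent groups.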
